A study of Mus musculus with 26 samples.

Results

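The Notch signalling genes described here are 32 genes chosen by name, of the 19505 genes measured: 4 receptors, 6 ligands, 7 target genes, 3 glycosyltransferases that modify the receptors, 4 parts of the nuclear complex, 2 inhibitors, 5 proteases and 1 ubiquitin ligase. All 32 were measured, each by 1 transcript cluster (the array's probe set for a gene). The choice used their names and roles, with no threshold on measured values. The cells were neural stem and progenitor cells (NSPCs), dividing precursors grown from the telencephalon of C57BL/6 mice; the labels give the stage as postnatal day 0 and the tissue as fetal telencephalon. Cells of each animal were kept as a separate culture, in medium with epidermal and fibroblast growth factors. Cultures 1 to 6 were wild type (WT), and cultures 7 to 13 were SOX2 knockout (SOX2 KO). After passage 3 each culture was given 100 nM dexamethasone (Dex), a synthetic ligand of the glucocorticoid receptor, or its ethanol vehicle for 4 h, and each condition gave 1 array, 26 in all. Both sexes were used, but the labels give no sex for a culture, and how or when Sox2 was deleted is not given in the sources used here.

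Notch is a receptor that is cut when a ligand on a neighbouring cell binds it. The freed intracellular part enters the nucleus, joins the DNA-binding protein RBPJ and a Mastermind-like co-activator, and switches on repressors of the Hes and Hey families. In the developing telencephalon these repressors hold back proneural genes, and the pathway is known for keeping neural stem cells undifferentiated. SOX2 is a transcription factor of the same cells.

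Values are on a log2 scale, read as such from the values themselves since the base is not stated, so a difference of 1 is a 2-fold change if that reading holds. A gene was called changed when its Benjamini-Hochberg adjusted p over all 19505 genes in limma was under 0.05, and standard errors (SE) are limma's moderated ones. The number of arrays limits the precision. In such bulk RNA, fewer cells of a type and less RNA per cell cannot be told apart.

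The library labels were checked first. On vehicle arrays, Sox2 averaged 13.40 ± 0.70 (SD, n = 6) in WT cultures and 4.65 ± 0.51 (n = 7) in SOX2 KO cultures, with no overlap. The glucocorticoid-induced genes Fkbp5, Per1 and Fam107a were higher on the Dex array in 12 of the 13 cultures. Culture 4, labelled WT, went the other way for all 3, with Dex minus vehicle of -2.03, -2.74 and -6.83. Its libraries are therefore named as the ones labelled vehicle and Dex, and the effects and counts it moves most are given with and without it. The Dex array of culture 12 (SOX2 KO) had the lowest upper quartile of all arrays, 9.38, against up to 10.43. After group means were removed, the cultures also fell into 3 sets that the labels do not name, with cultures 1, 2, 3, 7 and 8 in set 1, cultures 4, 10 and 12 in set 2 and cultures 5, 6, 9, 11 and 13 in set 3. Of 9 measured markers of neural stem and progenitor cells, 7 lay above the array's median on every array. So did 4 of 7 neuron markers and 4 of 6 astrocyte markers. Microglia and endothelium markers lay mostly below it, 5 of 6 and 4 of 5 genes on every array.

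Lfng was the Notch gene that moved with Dex. It encodes lunatic fringe, a Golgi enzyme that adds a sugar to Notch receptors and so changes which ligands they respond to. In SOX2 KO cultures it rose by 0.89 (SE 0.13), and it was higher on the Dex array in 7 of 7 of them, as were 1.01% of all genes. In WT cultures it was higher in 5 of 6, and it passed the test there only when culture 4 was left out. The first 250 bases before its annotated start, in RefSeq's GRCm38.p6 mouse assembly, are shown here with those of Hes5, a direct Notch target, and Jag1, the ligand that differed most between genotypes by p. They only show where the RBPJ and SOX letters lie in these promoters, and a link of the letters to the results was not tested.

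Lfng: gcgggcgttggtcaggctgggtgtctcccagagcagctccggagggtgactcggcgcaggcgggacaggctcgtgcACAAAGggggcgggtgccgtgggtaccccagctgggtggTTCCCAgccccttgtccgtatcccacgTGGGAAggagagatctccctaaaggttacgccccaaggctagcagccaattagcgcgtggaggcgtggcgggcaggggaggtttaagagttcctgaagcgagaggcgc
Hes5: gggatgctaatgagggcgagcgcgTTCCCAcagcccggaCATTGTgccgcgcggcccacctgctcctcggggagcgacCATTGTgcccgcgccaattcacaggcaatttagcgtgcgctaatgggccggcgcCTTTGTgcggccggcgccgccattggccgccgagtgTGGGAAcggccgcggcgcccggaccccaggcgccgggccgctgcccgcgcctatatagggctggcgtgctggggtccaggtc
Jag1: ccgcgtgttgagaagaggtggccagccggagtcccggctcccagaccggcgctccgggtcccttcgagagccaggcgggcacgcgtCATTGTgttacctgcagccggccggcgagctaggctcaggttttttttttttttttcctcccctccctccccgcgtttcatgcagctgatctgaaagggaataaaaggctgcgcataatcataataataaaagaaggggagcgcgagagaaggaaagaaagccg

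The Lfng stretch is chr5:140607091-140607340 on the plus strand, the Hes5 stretch chr4:154960673-154960922 on the plus strand, and the Jag1 stretch chr2:137116521-137116770 on the minus strand. Capitals mark TGGGAA (the core letters bound by RBPJ), and CTTTGT or CATTGT (letters bound by SOX proteins), each searched on both strands, so TTCCCA is TGGGAA on the other strand. The 3 motifs do not share letters with each other at any site shown. Lfng had TGGGAA at 135 and 108 bases before the start and CTTTGT at 174. Hes5 had TGGGAA at 226 and 82, CTTTGT at 118 and CATTGT at 211 and 172. Jag1 had CATTGT at 164. Over windows of 250 bases before to 50 after the start, TGGGAA was in 9 of the 34 promoters of the 27 members that have one in the table, and in 25.6% of all 32851 promoters. CTTTGT was in 9 of the 34 against 18.7% of all, and CATTGT in 8 against 12.6%. AGAACA, the half-site of the glucocorticoid receptor, was in 3 of the 34 against 19.0%, and its inverted pair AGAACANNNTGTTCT in 0 against 0.00913%. Neither was in the Lfng window. A match is a description of letters, not a bound site.

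On single arrays, Lfng moved as follows. In SOX2 KO vehicle arrays its lowest, median and highest values were 12.03, 12.47 and 12.64, and in SOX2 KO Dex arrays 13.03, 13.12 and 13.58. The SOX2 KO groups did not overlap, as for 16 of all 19505 genes in that direction (0.0820%). In WT vehicle arrays the values were 12.38, 13.03 and 13.45, and in WT Dex arrays 13.01, 13.62 and 13.98, so the WT groups did overlap. Within single cultures, Dex minus vehicle was 0.94, 0.80, 0.84, 0.94, 0.58, 1.09 and 1.03 in SOX2 KO cultures 7 to 13. It was 0.85, 0.87, 0.47, -0.26, 0.70 and 0.63 in WT cultures 1 to 6. The one negative value belongs to culture 4, the culture that goes against its labels.

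**Figure D1:**
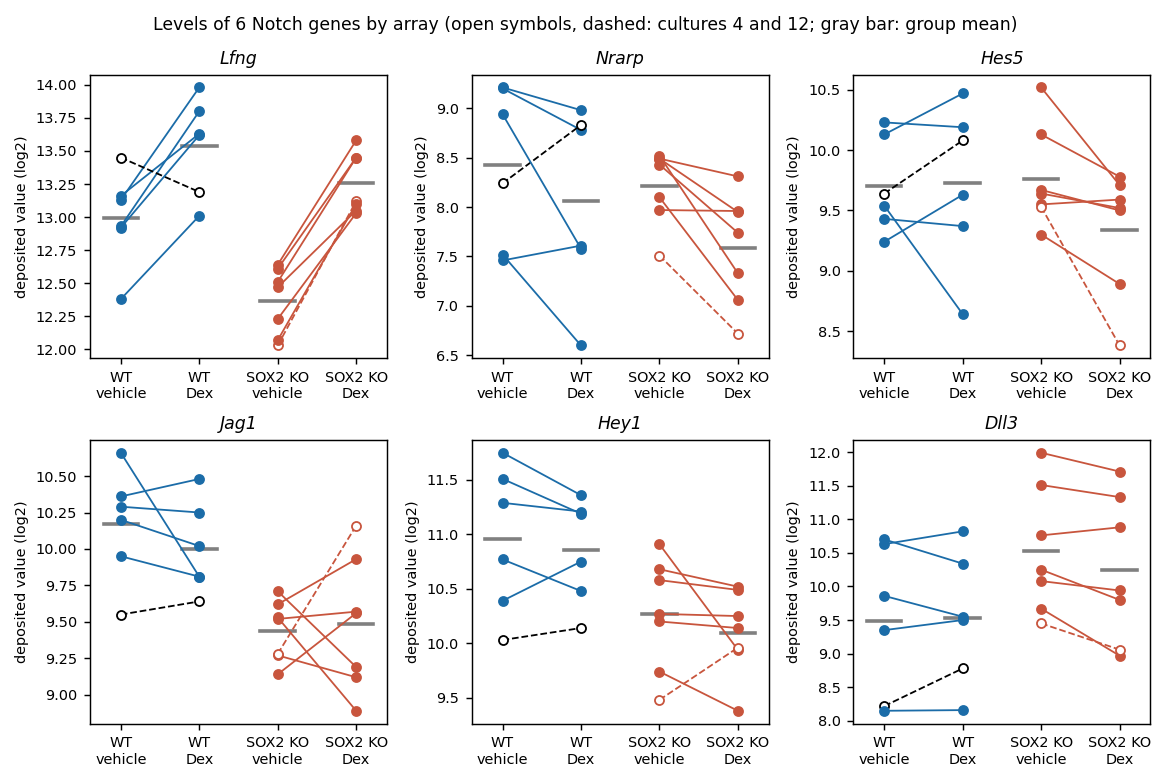
Deposited log2 values (y axis) of Lfng, Nrarp, Hes5, Jag1, Hey1 and Dll3 in the 4 groups (x axis). Each point is 1 array, a line joins the vehicle and Dex arrays of 1 culture, gray bars are group means, and open symbols with dashed lines are cultures 4 and 12. All 7 SOX2 KO lines of Lfng go up, from 12.03 to 12.64 in vehicle to 13.03 to 13.58 in Dex.

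With culture as a block in limma, the Dex effect on Lfng in SOX2 KO cultures had an adjusted p of 0.0103. Lfng was the 1 member called of 32 (3.12%), where 14 of all 19505 genes were called (0.0718%), all of them higher. The call was lost without culture 13 (0.86, SE 0.15, adjusted p = 0.0568 in limma) and without the block (adjusted p = 0.0637), and leaving out culture 4, which narrows the shared spread, gave 0.000524 in limma, with 49 of all genes called (0.251%). In WT cultures the effect was 0.54 (SE 0.15, adjusted p = 0.999 in limma), and no gene of all 19505 was called (755 at an unadjusted p under 0.05). Without culture 4 the WT effect was 0.70 (SE 0.13, adjusted p = 0.0381 in limma), with 33 genes called (0.169%), and Lfng was higher in 5 of 5, as were 5.03% of all genes. The effect in SOX2 KO minus that in WT was 0.35 (SE 0.20, unadjusted p = 0.0983 and adjusted p = 0.999 in limma), and 0.18 (SE 0.17) without culture 4, so a difference between genotypes in the Lfng response was not shown. By set of cultures, the mean Dex minus vehicle of Lfng was 0.79 in set 1, 0.59 in set 2, which holds culture 4, and 0.76 in set 3.

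The other fringe enzymes did not follow Lfng. Mfng (manic fringe) had Dex minus vehicle of 0.07 (SE 0.21) in WT and 0.04 (SE 0.20) in SOX2 KO cultures. Rfng (radical fringe) had -0.01 (SE 0.24) in WT. In SOX2 KO it had -0.54 (SE 0.22, unadjusted p = 0.0236 and adjusted p = 0.436 in limma), and culture 12 alone had -2.32. The SOX2 KO Dex arrays had a lowest, median and highest Rfng value of 7.58, 9.64 and 10.11, against 9.79, 9.95 and 10.25 in vehicle. WT arrays had 9.92, 10.12 and 10.36 in vehicle and 9.89, 10.11 and 10.37 in Dex. The lowest value is that of culture 12, and without this culture the SOX2 KO effect was -0.24 (SE 0.14).

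Among the target genes, no member passed the test for a Dex effect. Nrarp, which is switched on by Notch and feeds back on it by acting on its intracellular part, was lower on the Dex array in 7 of 7 SOX2 KO cultures, as were 1.49% of all genes. The difference was -0.63 (SE 0.20, unadjusted p = 0.00491 and adjusted p = 0.336 in limma), and in WT it was -0.36 (SE 0.21), or -0.56 (SE 0.21, adjusted p = 0.959 in limma) without culture 4. Its lowest, median and highest values were 7.51, 8.43 and 8.52 in SOX2 KO vehicle and 6.72, 7.74 and 8.31 in SOX2 KO Dex arrays. They were 7.46, 8.59 and 9.21 in WT vehicle and 6.60, 8.20 and 8.98 in WT Dex arrays. The groups overlap in both genotypes. Nrarp differed by set: Dex minus vehicle ran from -1.36 to -0.69 in the 5 cultures of set 3, of both genotypes, from -0.42 to 0.15 in the 5 of set 1, and from -0.79 to 0.59 in the 3 of set 2. Since the sets were made from these arrays, this is given with no test.

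Hes5, a repressor that is a main Notch effector in neural stem cells, had a Dex effect of -0.42 (SE 0.17) in SOX2 KO cultures, with an unadjusted p of 0.0219 and an adjusted p of 0.429 in limma. It was lower in 6 of 7, as were Dll1, Dll3, Hey1, Numb and Hey2, the last with a mean of 0.01, so this count does not set Hes5 apart. Culture 12 had -1.15, and without this culture the Hes5 effect was -0.30 (SE 0.16). In WT the effect was 0.03 (SE 0.18), and the difference between genotypes was -0.45 (SE 0.25, unadjusted p = 0.0853 and adjusted p = 0.999 in limma). The lowest, median and highest Hes5 values were 9.24, 9.59 and 10.23 in WT vehicle, 8.64, 9.86 and 10.47 in WT Dex, 9.30, 9.64 and 10.52 in SOX2 KO vehicle and 8.38, 9.52 and 9.78 in SOX2 KO Dex arrays. All 4 groups overlap.

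Hes1, the other main Hes effector, is one that oscillates in progenitors. It had Dex minus vehicle of -0.21 (SE 0.15) in WT, or -0.31 (SE 0.16, adjusted p = 0.998 in limma) without culture 4, and -0.14 (SE 0.14) in SOX2 KO cultures. Its lowest, median and highest values were 6.89, 7.14 and 7.31 in WT vehicle, 6.61, 6.91 and 7.19 in WT Dex, 7.06, 7.38 and 7.90 in SOX2 KO vehicle and 7.02, 7.13 and 7.65 in SOX2 KO Dex arrays. Its values lay close together, with an SD of 0.28 over all arrays. Hes6, a family member that counteracts Hes1, varied more, with an SD of 0.82. Its Dex effect was 0.34 (SE 0.20, unadjusted p = 0.102 and adjusted p = 0.999 in limma) in WT and 0.03 (SE 0.18) in SOX2 KO cultures. The Hes6 values ran over 5.06, 6.65 and 7.93 (lowest, median, highest) in WT vehicle and 5.19, 7.21 and 8.15 in WT Dex arrays. SOX2 KO values ran over 5.31, 6.51 and 7.57 in vehicle and 5.83, 6.80 and 7.38 in Dex arrays, and all 4 groups overlap. The Hey genes, repressors related to Hes, had small Dex differences. Hey1 had -0.10 (SE 0.16) in WT and -0.17 (SE 0.15) in SOX2 KO, Hey2 had -0.01 (SE 0.15) and 0.01 (SE 0.14), and Heyl had 0.15 (SE 0.14) and 0.20 (SE 0.13).

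**Figure D2:**
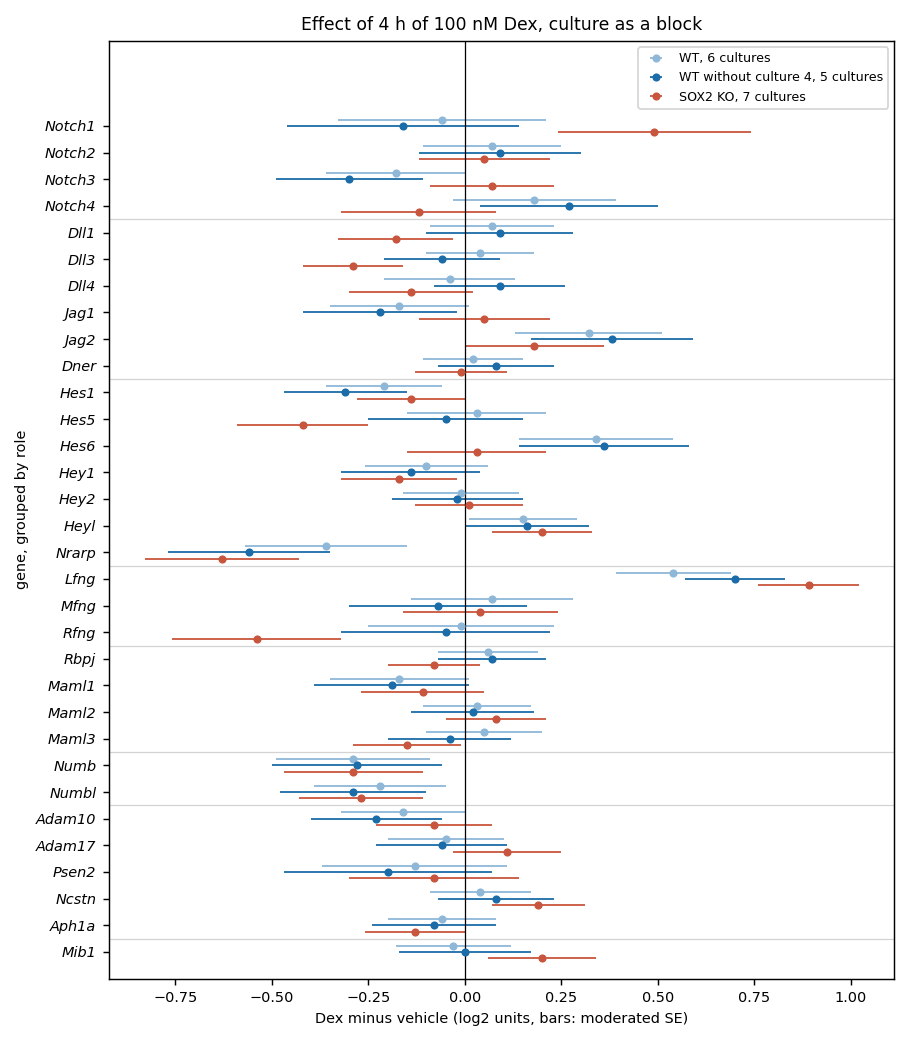
Dex minus vehicle in log2 units (x axis) for each of the 32 genes (y axis, grouped by role), as points with bars of 1 moderated SE, for 6 WT cultures, 5 WT cultures without culture 4, and 7 SOX2 KO cultures. Lfng lies farthest to the right in all 3 fits, at 0.54, 0.70 and 0.89, and Nrarp farthest to the left in each, at -0.36, -0.56 and -0.63.

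No receptor passed the test for Dex. Notch1, the main receptor of neural stem cells, had Dex minus vehicle of -0.06 (SE 0.27) in WT and 0.49 (SE 0.25, unadjusted p = 0.0677 and adjusted p = 0.526 in limma) in SOX2 KO cultures. Culture 12 alone had 2.14, and the SOX2 KO effect without it was 0.22 (SE 0.21). The lowest, median and highest Notch1 values were 6.53, 8.10 and 8.84 in WT vehicle, 6.34, 8.41 and 8.88 in WT Dex, 6.88, 7.99 and 8.60 in SOX2 KO vehicle and 7.12, 8.51 and 9.19 in SOX2 KO Dex arrays. These ranges overlap throughout. Notch2, the receptor named next, had 0.07 (SE 0.18) and 0.05 (SE 0.17), Notch3 had -0.18 (SE 0.18) and 0.07 (SE 0.16), and Notch4, known from vessels, had 0.18 (SE 0.21) and -0.12 (SE 0.20), in WT and SOX2 KO cultures in that order.

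Of the ligands, Dll1 and Jag1 are activating ligands made by progenitors, while Dll3 acts inside the cell that makes it and does not activate Notch on its neighbours. Dll1 had Dex minus vehicle of 0.07 (SE 0.16) in WT and -0.18 (SE 0.15) in SOX2 KO cultures. Its lowest, median and highest values were 8.37, 9.13 and 10.21 in WT vehicle, 8.99, 9.21 and 10.17 in WT Dex, 8.43, 9.10 and 9.74 in SOX2 KO vehicle and 8.19, 8.78 and 9.63 in SOX2 KO Dex arrays, all overlapping. The highest value of both WT groups belongs to culture 4. Dll3 was lower with Dex in 6 of 7 SOX2 KO cultures, as were Dll1, Hes5, Hey1, Hey2 and Numb. The Dll3 effect was -0.29 (SE 0.13, unadjusted p = 0.0433 and adjusted p = 0.478 in limma), against 0.04 (SE 0.14) in WT, and that difference was -0.33 (SE 0.20, unadjusted p = 0.11 in limma). Jag1 had -0.17 (SE 0.18) in WT and 0.05 (SE 0.17) in SOX2 KO. Dll4, a vessel ligand, had -0.04 (SE 0.17) and -0.14 (SE 0.16), Jag2 had 0.32 (SE 0.19) and 0.18 (SE 0.18), and Dner, a ligand-like protein of neurons, had 0.02 (SE 0.13) and -0.01 (SE 0.12).

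Both inhibitors had lower means with Dex. Numb, which removes Notch from the surface, was lower on the Dex array in 6 of 6 WT cultures, as were 2.11% of all genes, with differences of -0.61 to -0.09 and an effect of -0.29 (SE 0.20, adjusted p = 0.999 in limma). The 6 include -0.35 in culture 4, the culture that goes against its labels. Without culture 4, Numb, Hes1 and Adam10 were lower in every WT culture, 3 of 32 members (9.38%), against 4.96% of all genes. In SOX2 KO the Numb effect was -0.29 (SE 0.18), with -1.64 in culture 12, and -0.06 (SE 0.13) without that culture. Numbl, its close relative, had -0.22 (SE 0.17) in WT and -0.27 (SE 0.16) in SOX2 KO. In the nuclear complex, Rbpj had 0.06 (SE 0.13) and -0.08 (SE 0.12), Maml1 had -0.17 (SE 0.18) and -0.11 (SE 0.16), Maml2 had 0.03 (SE 0.14) and 0.08 (SE 0.13), and Maml3 had 0.05 (SE 0.15) and -0.15 (SE 0.14). The sheddases Adam10 and Adam17, which make the first cut in the receptor, had -0.16 (SE 0.16) and -0.05 (SE 0.15) in WT and -0.08 (SE 0.15) and 0.11 (SE 0.14) in SOX2 KO. Of the gamma-secretase genes, which make the second cut, Psen2 had -0.13 (SE 0.24) and -0.08 (SE 0.22), Ncstn had 0.04 (SE 0.13) and 0.19 (SE 0.12), and Aph1a had -0.06 (SE 0.14) and -0.13 (SE 0.13). Mib1, the ligase that lets ligands pull on the receptor, had -0.03 (SE 0.15) and 0.20 (SE 0.14). None of these passed the test.

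Counted together, 18 of the 32 genes had a negative Dex effect in SOX2 KO cultures (56.2%, against 54.5% of all genes) and 14 a positive one, with a median of -0.08 against -0.02 over all genes tested. The count below an unadjusted p of 0.05 was 5 of 32 (15.6%: Lfng, Nrarp, Hes5, Rfng and Dll3), against 10.2% of all genes. Without culture 12 it was 2 of 32 (6.25%), against 8.17%, with Hes5 at a p of 0.0755, Rfng at 0.0894 and Dll3 at 0.0613 in limma. With array weights it was also 2 (against 7.23%), as it was without the block (against 2.84%). The members' share was thus above that of all genes without the block, and below it in the other 2 of these 3 fits. In WT cultures 17 were negative (53.1%, against 48.9%) and 15 positive, with a median of -0.01 against 0.00, and 1 of 32, Lfng, lay below that p (3.12%, against 3.87% of all). Without culture 4 these were Lfng and Nrarp, 2 of 32 (6.25%, against 4.93%), and without culture 12 also 2 (against 6.71%). For the difference of the Dex effects between genotypes, 0 members and 0 genes of all 19505 were called in limma, and 0 members against 688 genes (3.53%) had an unadjusted p under 0.05. The members' median difference was -0.03, as was that of all genes. Without culture 4 the WT effects of the 32 genes shifted by no more than that of Nrarp, -0.19, and without culture 12 the SOX2 KO effects by no more than that of Rfng, 0.30, with Lfng the 1 member called in each. No gene of the marker lists of other cell types was called for a Dex effect in either genotype.

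**Figure D3:**
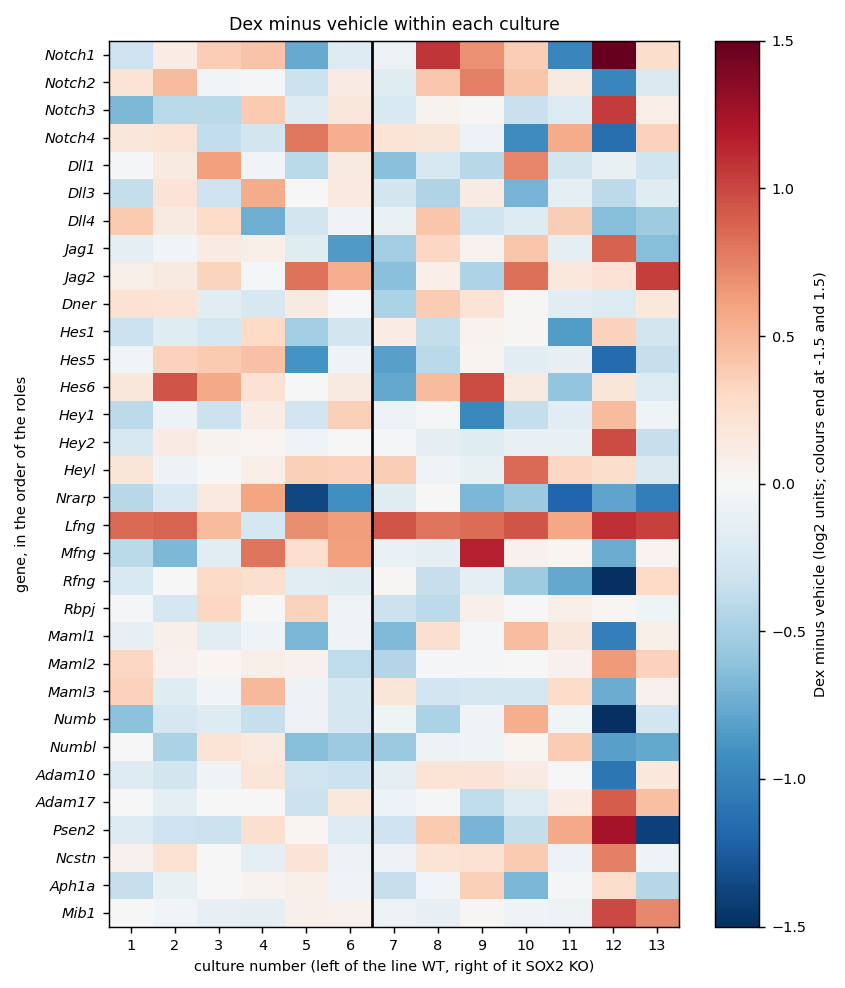
Dex minus vehicle in log2 units (colour, ending at -1.5 and 1.5) for each of the 32 genes (y axis) in each culture (x axis, WT left of the line and SOX2 KO right of it). Lfng is red in every culture but 4, at 0.47 to 1.09, while the column of culture 12 holds many of the deepest colours in either direction.

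The comparison of genotypes asked which Notch genes differ where Sox2 was deleted. No member was called in vehicle arrays, where 109 of all 19505 genes were (0.559%, 37 up and 72 down without Sox2), nor in Dex arrays, where 110 were (0.564%, 36 up and 74 down). With each array centred on its median, the Dex arrays gave 67 up and 85 down, and after quantile normalization 77 and 94. In vehicle arrays 23 of the 32 genes were lower in SOX2 KO (71.9%, against 55.2% of all genes), with a median difference of -0.13 against -0.03 over all genes. In Dex arrays 22 were lower (68.8%, against 58.6%), with a median of -0.15 against -0.06. After quantile normalization the Dex arrays had 18 lower and 14 higher, with a median of -0.07 against 0.00, and the vehicle median was -0.06 against 0.01. With the sets of cultures as covariate the vehicle median was -0.04 against 0.01, and without culture 1 it was -0.06 against -0.01. Among genes above the median level, 25 of them members, the Dex-array median was -0.10 against -0.12, so the members' median was not the lower one there. This filter does not match genes to the members' levels. The vehicle median in that fit was -0.15 against -0.06. Below an unadjusted p of 0.05 were 5 of 32 in vehicle (15.6%, against 5.17%), namely Jag1, Lfng, Hey1, Hey2 and Dll3, and 3 in Dex (9.38%, against 7.56%), namely Hey1, Rfng and Jag1. Without culture 4 it was 4 in vehicle (12.5%, against 6.27%), the 5 less Dll3, and 6 in Dex arrays (18.8%, against 8.38%), with Notch4, Hes1 and Hey2 added. The number was 3 without culture 1, 3, 5, 7, 8 or 13 in vehicle (9.38%, against 4.33% to 6.17% of all genes). In Dex arrays it was 5 without culture 5, 11 or 12 (15.6%, against 6.75% to 7.59%) and 6 without culture 6 (18.8%, against 8.66%). It was 4 without culture 7 or 8 (12.5%, against 8.81% and 8.64%) and 3 without culture 1, 3, 9 or 10 (9.38%, against 5.99% to 7.83%). Without culture 2 or 13 it fell to 2, below the share of all genes (6.25%, against 6.44% and 6.88%). Without culture 4 the largest shifts of a member were 0.26 in vehicle (Hes6) and -0.27 in Dex arrays (Mib1), without culture 12 they were 0.18 (Dll3) and 0.31 (Rfng), and 0 members were called in all 4 fits. Of the marker lists for other cell types, 2 of the 6 astrocyte genes were called lower in SOX2 KO vehicle arrays: Aldoc with -1.71 (SE 0.22, adjusted p = 3.57e-05 in limma) and Slc1a2 with -2.03 (SE 0.35, adjusted p = 0.00204 in limma). The mean of the 6 ran from 9.49 to 11.57 in WT and from 9.37 to 11.27 in SOX2 KO vehicle arrays, and its part in the results was not tested.

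Jag1, a ligand that marks radial glia and other progenitors, had a lower mean in SOX2 KO vehicle arrays, with a difference of -0.73 (SE 0.21, unadjusted p = 0.00152 and adjusted p = 0.141 in limma). Its lowest, median and highest values were 9.55, 10.24 and 10.66 in WT vehicle and 9.14, 9.52 and 9.71 in SOX2 KO vehicle arrays, and the 9.55 is culture 4. All 7 SOX2 KO arrays lay below the WT median, as they also did for Notch3, Hey1, Nrarp and Lfng, and the share of all genes placed so was not counted. Without culture 4 the groups did not overlap, as for 0.554% of all genes in that direction. The difference was then -0.85 (SE 0.21, adjusted p = 0.0613 in limma). It was -0.54 in set 1, -0.34 in set 2 and -0.99 in set 3 of the cultures. In Dex arrays the values were 9.64, 9.91 and 10.48 in WT and 8.89, 9.56 and 10.16 in SOX2 KO, and the groups overlap. The difference was -0.51 (SE 0.21, adjusted p = 0.501 in limma), with -0.62, 0.22 and -0.72 in the 3 sets.

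Lfng, the gene that rose with Dex, also had a lower mean in SOX2 KO vehicle arrays, with a difference of -0.63 (SE 0.19, unadjusted p = 0.00249 and adjusted p = 0.195 in limma). It was -0.54 (SE 0.19) without culture 4, and -0.64, -1.18 and -0.27 in the 3 sets. In Dex arrays the difference was -0.28 (SE 0.19, unadjusted p = 0.146 in limma). Hey1 differed by -0.69 (SE 0.28, adjusted p = 0.628 in limma) in vehicle and by -0.76 (SE 0.28, adjusted p = 0.389 in limma) in Dex arrays. Without culture 4 it differed by -0.88 (SE 0.27, adjusted p = 0.209 in limma) and -0.90 (SE 0.27, adjusted p = 0.175 in limma). Its lowest, median and highest values were 10.03, 11.03 and 11.75 in WT vehicle and 9.48, 10.27 and 10.91 in SOX2 KO vehicle arrays. In Dex arrays they were 10.14, 10.97 and 11.36 in WT and 9.38, 10.14 and 10.52 in SOX2 KO. All 7 SOX2 KO arrays lay below the WT median of Hey1 under either treatment, but the groups overlap. The same placing below the WT median held in vehicle for Notch3, Jag1, Nrarp and Lfng, and in Dex arrays for Notch4, Dll4, Hes5, Hey2 and Lfng. The share of all genes placed so was not counted. Of all genes, 55.2% had a lower mean in SOX2 KO in vehicle and 58.6% in Dex arrays. Within the 3 sets the Hey1 difference was -1.09, -0.42 and 0.02 in vehicle, so the Hey1 difference did not hold in set 3, and -0.88, -0.47 and -0.41 in Dex arrays.

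Dll3 had the highest vehicle difference of the 32 genes, 1.04 (SE 0.51, unadjusted p = 0.0495 and adjusted p = 0.964 in limma). Its values were widely spread, with a lowest, median and highest of 8.15, 9.61 and 10.70 in WT and 9.45, 10.25 and 11.99 in SOX2 KO vehicle arrays. In Dex arrays they were 8.16, 9.53 and 10.82 in WT and 8.97, 9.94 and 11.71 in SOX2 KO, with a difference of 0.72 (SE 0.51). The groups overlap under both treatments, and the vehicle difference was 0.79 (SE 0.52) without culture 4. Rfng differed by -0.14 (SE 0.26) in vehicle and -0.68 (SE 0.26, unadjusted p = 0.0149 and adjusted p = 0.445 in limma) in Dex arrays, the latter -0.36 (SE 0.16) without culture 12. Mfng had -0.47 (SE 0.33) and -0.50 (SE 0.33).

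The 4 receptors all had lower means in SOX2 KO vehicle arrays, and none passed the test. Notch1 had -0.23 (SE 0.41), Notch2 -0.43 (SE 0.33), Notch3 -0.41 (SE 0.21) and Notch4 -0.20 (SE 0.26). In Dex arrays they had 0.32 (SE 0.41), -0.46 (SE 0.33), -0.16 (SE 0.21) and -0.50 (SE 0.26). The remaining ligands had vehicle differences of -0.12 (SE 0.27) for Dll1, -0.28 (SE 0.22) for Dll4, -0.01 (SE 0.24) for Jag2 and 0.04 (SE 0.27) for Dner. Their Dex-array differences were -0.37 (SE 0.27), -0.38 (SE 0.22), -0.14 (SE 0.24) and 0.00 (SE 0.27).

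Among the targets, Hes1 had a higher mean in SOX2 KO, by 0.24 (SE 0.17) in vehicle and 0.32 (SE 0.17) in Dex arrays, while Hey2 had differences of -0.40 (SE 0.19) and -0.38 (SE 0.19). Hes5 differed by 0.06 (SE 0.27) in vehicle and -0.39 (SE 0.27) in Dex arrays. Hes6 had -0.05 (SE 0.43) and -0.35 (SE 0.43), or 0.22 (SE 0.41) and -0.11 (SE 0.41) without culture 4, Heyl -0.07 (SE 0.21) and -0.01 (SE 0.21), and Nrarp -0.21 (SE 0.35) and -0.48 (SE 0.35). Of the 7 targets, 5 were lower and 2 higher in vehicle arrays, and 4 and 3 without culture 4.

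Rbpj, the DNA-binding partner of every Notch receptor, had lowest, median and highest values of 10.56, 11.72 and 11.93 in WT vehicle, 10.57, 11.70 and 12.13 in WT Dex, 10.83, 11.56 and 12.13 in SOX2 KO vehicle and 10.83, 11.65 and 11.81 in SOX2 KO Dex arrays. It differed between genotypes by 0.05 (SE 0.26) and -0.09 (SE 0.26), and all groups overlap. The Mastermind-like genes had -0.04 (SE 0.24) and 0.02 (SE 0.24) for Maml1, -0.15 (SE 0.20) and -0.10 (SE 0.20) for Maml2, and -0.05 (SE 0.17) and -0.24 (SE 0.17) for Maml3, in vehicle and Dex arrays in that order. Numb had 0.10 (SE 0.27) and 0.11 (SE 0.27), and Numbl 0.07 (SE 0.22) and 0.02 (SE 0.22). For the proteases the differences were -0.17 (SE 0.20) and -0.09 (SE 0.20) for Adam10, -0.24 (SE 0.22) and -0.07 (SE 0.22) for Adam17, and 0.03 (SE 0.25) and 0.08 (SE 0.25) for Psen2. Ncstn had 0.16 (SE 0.21) and 0.31 (SE 0.21), Aph1a -0.26 (SE 0.24) and -0.32 (SE 0.24), and Mib1 -0.07 (SE 0.33) and 0.15 (SE 0.33).

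**Figure D4:**
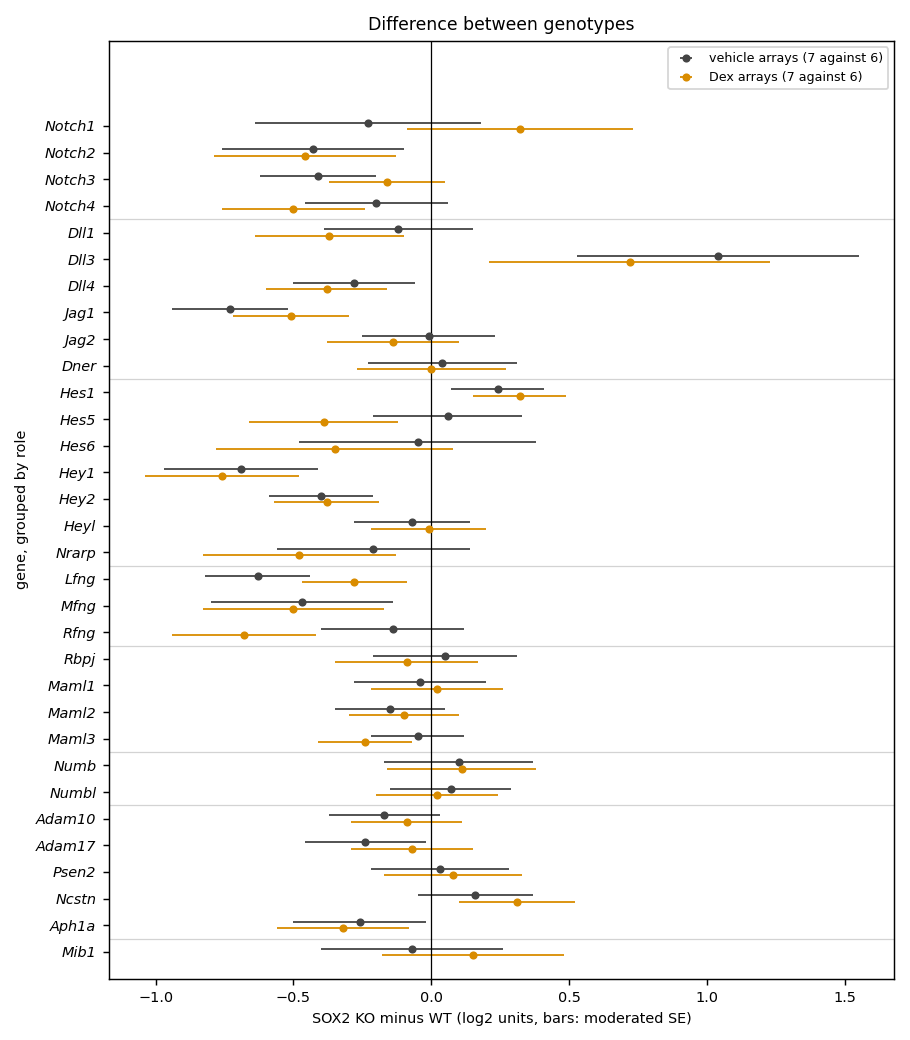
SOX2 KO minus WT in log2 units (x axis) for each of the 32 genes (y axis, grouped by role), as points with bars of 1 moderated SE, for vehicle and for Dex arrays (7 against 6 each). Jag1 (-0.73), Hey1 (-0.69) and Lfng (-0.63) have the lowest vehicle values, and Dll3 (1.04) the highest.

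The genes spanned much of the array's range. Over all 26 arrays Mib1 ran from 12.28 to 14.31, Lfng from 12.03 to 13.98, Adam10 from 11.61 to 13.35, Ncstn from 11.87 to 13.23, Aph1a from 11.44 to 13.06, Adam17 from 11.52 to 12.92, Maml2 from 10.92 to 12.13 and Dner from 10.65 to 12.29. Lower values were those of Notch2 (7.52 to 9.99), Maml1 (7.40 to 9.34), Numb (7.66 to 9.93), Numbl (6.51 to 8.12), Notch3 (6.82 to 8.32), Mfng (5.91 to 8.67) and Hey2 (5.98 to 7.47). Notch4 (3.79 to 5.70), Dll4 (4.50 to 6.09), Jag2 (4.68 to 6.28), Heyl (4.85 to 6.09) and Maml3 (3.71 to 4.78) lay below the array's median on all 26 arrays, and Psen2 (5.32 to 7.24) on 24. These values depend on each probe set, so they do not rank the genes. The mean of the 32 was 9.05 ± 0.27 (SD, n = 6) in WT vehicle, 9.04 ± 0.28 (n = 6) in WT Dex, 8.92 ± 0.22 (n = 7) in SOX2 KO vehicle and 8.88 ± 0.17 (n = 7) in SOX2 KO Dex arrays, with ranges that overlap (8.68 to 9.37 in all).

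For several members the means of the 3 sets of cultures lay farther apart than the genotypes or treatments did. Mib1 averaged 14.07 in set 1, 12.72 in set 2 and 13.86 in set 3, and Rbpj 11.89, 10.79 and 11.63. The 6 arrays of set 2 ran from 10.56 to 11.00 for Rbpj and did not overlap the others, which began at 11.36. Dner averaged 11.75, 10.86 and 10.96, Notch2 9.68, 8.51 and 8.61, and Hey1 10.99, 9.79 and 10.48. Notch2 in set 1 ran from 9.22 to 9.99, above every array of the other sets. Set 1 holds 3 WT and 2 SOX2 KO cultures, set 2 holds 1 and 2, and set 3 holds 2 and 3. Since the sets were made from all genes of these arrays, their levels are a description with no test. The share of all genes whose sets separate in this way was not counted, so the separation is not shown as a trait of the members.

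**Figure D5:**
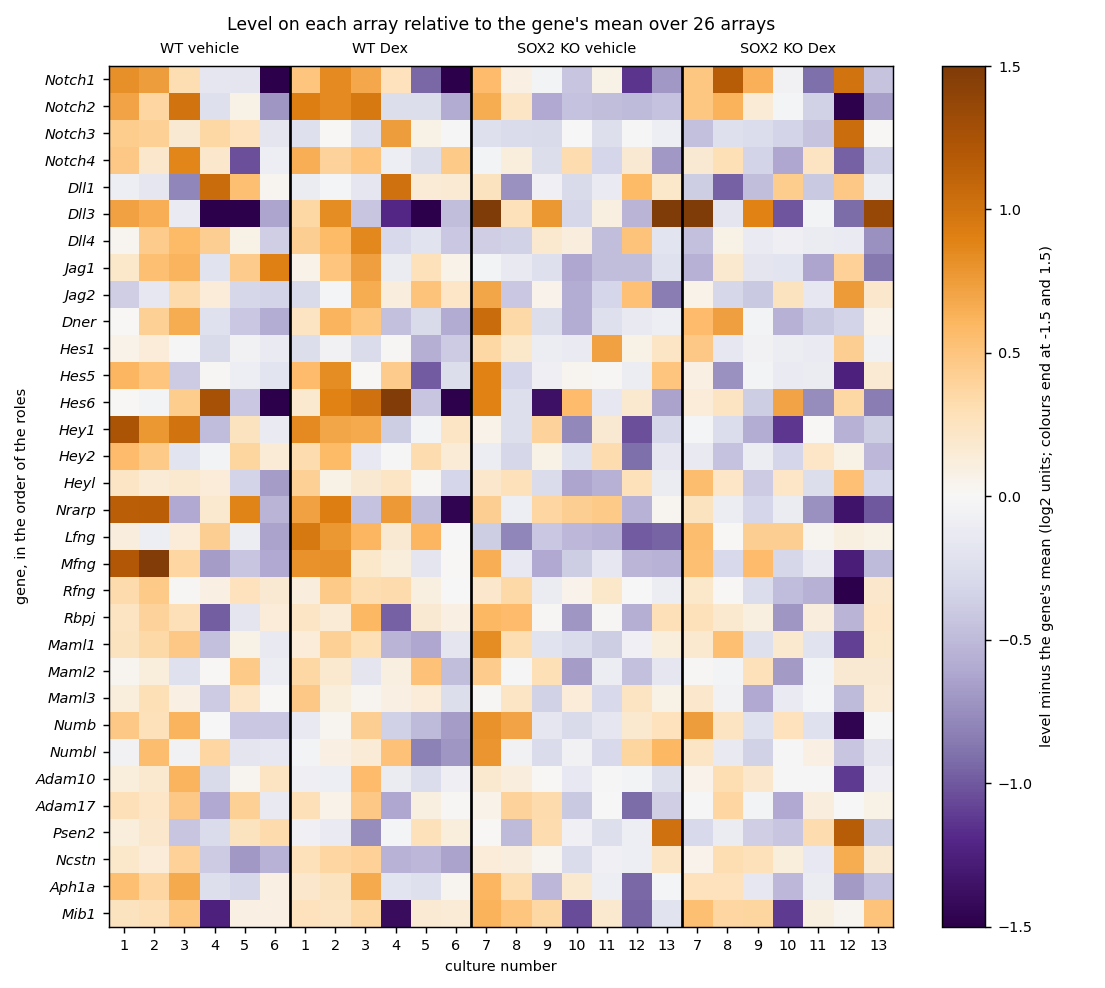
Level on each array minus the gene's mean over 26 arrays, in log2 units (colour, ending at -1.5 and 1.5), for the 32 genes (y axis) and the cultures (x axis) in the 4 groups. Mib1 and Rbpj are lowest in cultures 4 and 10 under both treatments, and Lfng turns from purple in SOX2 KO vehicle to orange in most SOX2 KO Dex arrays.

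A wider list of 52 other genes of the pathway, of which 46 were measured, had no called member in any of the 5 comparisons in limma. An unadjusted p under 0.05 was found between genotypes for 2 of the 46 in vehicle (4.35%, against 5.17% of all genes) and 7 in Dex arrays (15.2%, against 7.56%). It was found for 1 for Dex in WT (2.17%, against 3.87%), for 2 for Dex in SOX2 KO cultures (4.35%, against 10.2%) and for 1 for the difference of the Dex effects (2.17%, against 3.53%). Dlk1, a ligand-like protein without the domain that activates Notch, had the smallest p between genotypes. It had a higher mean in SOX2 KO by 1.29 (SE 0.34, adjusted p = 0.0977 in limma) in vehicle and by 1.18 (SE 0.34, adjusted p = 0.145 in limma) in Dex arrays. Ctbp2, a co-repressor, had -0.69 (SE 0.26, adjusted p = 0.501 in limma) in vehicle arrays and a Dex effect of -0.34 (SE 0.14) in WT cultures. Tle4, a Groucho co-repressor that Hes proteins recruit, had -0.71 (SE 0.22, adjusted p = 0.204 in limma) between genotypes in Dex arrays and a Dex effect of -0.47 (SE 0.14, adjusted p = 0.336 in limma) in SOX2 KO cultures. Kat2a, a histone acetyltransferase, had a Dex effect of -0.41 (SE 0.16) there. Mib2, the relative of Mib1, had a Dex effect of -0.35 (SE 0.17) in WT cultures and a difference of 0.52 (SE 0.23, adjusted p = 0.999 in limma) between the genotypes' Dex effects, and the next in that comparison, Ctbp2, had 0.36 (SE 0.19). The 6 listed genes without a value were not analysed here.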

How the data were processed

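The deposited table of 26 one-colour arrays, hybridised with biotin-labelled cRNA, holds 22206 transcript clusters. The authors deposited log2 values, a unit read here from the range (2.22 to 19.81), since base and normalization are not given in the sources used here. Clusters with 1 gene symbol in the platform annotation (19572) were kept, 2634 without one were left out, and for 55 genes with several clusters the one of highest mean was used, which left 19505 genes.

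Genotypes were compared in limma 3.58.1 (R 4.3.3) with 4 group means over 26 arrays, and Dex effects and their difference with culture as a block, which the labels' culture numbers give. Deviations from the group means of a culture's pair of arrays correlated at 0.31 to 0.73, and 22 of 26 arrays correlated best with their own number. P-values were adjusted by Benjamini-Hochberg over 19505 genes, threshold 0.05. The labels say that cells of each animal were kept apart, so the replicate is the animal. The scripts were tested on simulated data. Promoter letters come from RefSeq (GRCm38.p6), matched by symbol for 27 of 32 members, and the deposited table was not matched by coordinates.

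The members and lists were chosen with earlier results of these data known, so they are not independent support for a pattern. Every member is given its differences. Array values are given for members past the threshold, for the 3 smallest p-values of each comparison and for Notch1, Dll1, Jag1, Hes1, Hes5 and Rbpj. Of the other pathway genes, the 2 smallest p-values of each comparison are named. Alternatives were the block, normalization, a filter on low genes, the prior, array weights, the 2 groups alone, the sets of cultures as covariate, the mean of clusters and leaving out cultures. The choice to leave out cultures 4 and 12 together, and to add the sets with culture 4 out, was made after seeing the data.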

Additional observations from a re-analysis of the deposited data

Results flagged for a closer look

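Values are listed here where 1 culture stood apart from the others of its group by Dixon's criterion. Among 198 groups of values examined, 26 met it, and chance gives about 1 in 20 groups. Of the 26, 9 came from culture 4 and 7 from culture 12.

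In culture 4 (labelled WT), Dex minus vehicle was -0.26 for Lfng, where the others ran from 0.47 to 0.87. It was -2.03 for Fkbp5, -2.74 for Per1 and -6.83 for Fam107a, where all others were positive. On the array labelled Dex it had 8.03 for Notch3 (others 7.05 to 7.36), 10.17 for Dll1 (8.99 to 9.32), 10.57 for Rbpj (11.62 to 12.13) and 12.28 for Mib1 (13.83 to 14.04), and on the array labelled vehicle 12.43 for Mib1 (13.76 to 14.16).

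In culture 12 (SOX2 KO), the Dex array had 8.32 for Notch3 (others 6.82 to 7.29), 7.58 for Rfng (9.34 to 10.11) and 11.61 for Adam10 (12.65 to 13.04). Its Dex minus vehicle was 1.05 for Notch3, 0.98 for Hey2, -2.32 for Rfng and -1.08 for Adam10.

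In SOX2 KO culture 10, the Dex array had 10.92 for Maml2 (others 11.56 to 11.88), 11.84 for Adam17 (12.40 to 12.81) and 12.56 for Mib1 (13.71 to 14.22), and Dex minus vehicle was 0.73 for Dll1 (others -0.63 to -0.11). Culture 5 (WT) had Dex minus vehicle of -0.90 for Hes5 (others -0.06 to 0.44) and -0.69 for Maml1 (others -0.17 to 0.08). Culture 6 (WT) had -0.85 for Jag1 (others -0.18 to 0.12), and SOX2 KO culture 9 had 1.17 for Mfng (others -0.75 to 0.07). The vehicle array of SOX2 KO culture 7 had 7.83 for Mfng (others 6.58 to 7.03), and the Dex array of WT culture 3 had 13.30 for Adam10 (others 12.47 to 12.66).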

How the results depend on the processing

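Without the replicate block, 0 members were called for Dex in SOX2 KO cultures, against 1 with it, and for genotype a random block (consensus correlation 0.489) left the members called at 0 in vehicle and in Dex arrays. With array weights, 2 members were called in vehicle arrays (Jag1 at -0.71, adjusted p = 0.0248 in limma, and Lfng at -0.62, 0.0376) and 2 in Dex arrays (Hey1 at -0.94, 0.0214, and Jag1 at -0.66, 0.0324). The calls among all 19505 genes rose there as well, to 378 in vehicle and 561 in Dex arrays, from 109 and 110. Without cultures 4 and 12, 1 was called in vehicle arrays (Jag1 at -0.83, 0.0444) and 1 for Dex in WT (Lfng at 0.70, 0.0105). Of all genes, 117 and 58 were called in these 2 comparisons. With the sets as covariate and culture 4 left out, 1 was called in vehicle arrays (Jag1 at -0.85, 0.0331), with 210 of all genes. Leaving out 1 culture at a time gave 0 to 1 members called in vehicle arrays, with 75 to 143 of all genes. The 1 was Lfng (-0.75, adjusted p = 0.042 in limma) without culture 6, the fit with 143. In the same fits 0 members were called in Dex arrays, 0 to 1 for Dex in WT, 0 to 1 for Dex in SOX2 KO and 0 for the difference of Dex effects. The cause of these shifts was not tested.

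Of 3671 values of the members under alternatives, 253 changed sign, none of them past the threshold in the fits reported. The other pathway genes were not part of this count. Over all settings the members' median ran from -0.21 to -0.03 in vehicle and from -0.21 to -0.07 in Dex arrays. The members' number at an unadjusted p under 0.05 rose with array weights to 8 and 11, from 5 and 3. With the sets as covariate it rose to 6 and 9. The share of all genes below that p rose in these fits as well, from 5.17% and 7.56%. It was 13.0% and 16.2% with array weights, and 10.0% and 13.4% with the sets as covariate. For Dex in WT the members' number was 1 in the main fit (3.12%, against 3.87% of all genes). It was 4 (12.5%) with array weights (against 9.71%), with the 2 groups alone (against 7.55%), and without cultures 4 and 12 (against 8.46%). Among all genes, the 109 calls of vehicle arrays became 376 with the sets as covariate, 378 with array weights, 169 after quantile normalization and 210 with the sets and culture 4 left out. The 110 of Dex arrays became 397, 561, 171 and 216, 72 with the 2 groups alone, and 69 to 160 without single cultures. For Dex in WT, 0 became 1 with array weights, 33 without culture 4 and 58 without cultures 4 and 12. For Dex in SOX2 KO, 14 became 31 with the 2 groups alone, 24 above the median level, 66 without cultures 4 and 12, and 3 to 49 without single cultures. Members below the array's median (5 on all arrays) may be measured less precisely against background, which was not tested.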
